A study of Mus musculus with 4 samples.

Results

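Transcripts of 10 genes of the major histocompatibility complex (MHC) class I pathway were followed in single immune cells of mouse skin and of skin tumors. The genes were chosen by name, as the classical heavy chains H2-K1 and H2-D1, their partner B2m, the peptide transporter and loading genes Tap1, Tap2 and Tapbp, the transactivator Nlrc5 and the immunoproteasome subunits Psmb8, Psmb9 and Psmb10. All 10 were found among the 31053 genes of the 4 deposited matrices. The skin tumors grew from the 2323 cell line, a single line from a mouse model with K14rtTA, tetOCre and P53-/-, injected under the skin of female and male C57BL/6 mice that were 8 to 10 weeks old, and the control skins came from C57 animals that received no tumor cells. K14rtTA and tetOCre drive inducible recombination in keratin 14 expressing epithelium of the animals the line came from, and the genotype label of all 4 samples is C57/BL6. Live CD45+ cells were sorted after collagenase digestion and profiled by droplet 3′ single-cell RNA-seq from 2 control skins and 2 skin tumors. The labels give no sex for a sample, and all 4 libraries held Ddx3y of the Y chromosome, at 0.953 to 2.39 UMIs per 10,000, and almost no Xist, at most 0.00595. Nothing in the labels says more of the replicates than that they are separate samples, so the p-values measure the spread between these libraries.

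MHC class I molecules display short peptides from inside the cell to CD8 T cells and are read by inhibitory receptors of NK cells. Peptides are cut by the proteasome, carried into the endoplasmic reticulum by the TAP transporter and loaded onto a heavy chain paired with β2-microglobulin. Interferons, through factors that include IRF1 and NLRC5, are known to raise transcription of these genes, and with them of the 3 catalytic subunits that replace the constitutive ones to form the immunoproteasome. The MHC region encodes 7 of the 10 genes on mouse chromosome 17, where the 5′ ends of Tap1 (chr17:34187553-34197225, plus strand) and Psmb9 (chr17:34181987-34187764, minus strand) face each other and overlap in the mm10 annotation.

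The upstream sequences of 4 members are shown because they carry the letters of the elements through which the pathway is known to be induced. They are 30-base stretches of the promoter windows in RefSeq's table for GRCm38.p6, written 5′ to 3′ on the strand of the gene, with motif letters in capitals. The H2-K1 stretch lies at chr17:34000428-34000457 on the minus strand and the H2-D1 stretch at chr17:35262924-35262953 on the plus strand. B2m is shown at chr2:122147538-122147567 and Psmb8 at chr17:34198088-34198117, both on the plus strand. The H2-D1 and Psmb8 stretches lie inside the annotated spans of these genes, which begin at chr17:35262730 and chr17:34197721.
H2-K1: GGGATTCCCcatctccacagTTTCACTTCt
H2-D1: GGGATTCCCcatctcctcagTTTCACTTCt
B2m: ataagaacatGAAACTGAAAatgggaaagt
Psmb8: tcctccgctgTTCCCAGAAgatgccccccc

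Both heavy chain genes hold the κB core GGGATTCCC and, on the other strand, a shorter form of the interferon-stimulated response element core, GAANNGAAA. Their stretches differ at 1 of 30 bases. B2m holds the longer core GAAANNGAAA, and Psmb8 holds a gamma-activated site TTCNNNGAA. Among all 32851 windows of the table, searched on both strands, GGGATTCCC was in 0.353%, GAANNGAAA in 7.52%, GAAANNGAAA in 3.44% and TTCNNNGAA in 8.30%. The 2 interferon cores are alike in letters, but the longer one does not contain the shorter: B2m had 1 match to the longer and 0 to the shorter. A match describes the sequence only. Of the other members, Tap1, Tapbp, Psmb9 and Psmb10 had a window without these letters. H2-K1 and H2-D1 are close paralogs, and how reads common to both were counted was not tested.

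The 4 matrices held 3499 and 3862 cells of control skin and 5176 and 2258 cells of skin tumor, with 34893543 to 73904272 unique molecular identifiers (UMIs) per library. Cells were given a type by marker genes that included no member of the class I list. Cells that met several gates (65 to 321 per library) were left out, and doublets were not called otherwise. Cells that met no gate were also left out of the levels by type and of the sums over all gated cells. They numbered 1057 and 913 in control skin and 1478 and 531 in tumors. Their median UMIs were 4308 to 5091 per library, against 10610 to 13361.5 for all cells that passed the filters. Ptprc, which encodes CD45, was detected in 92.2% to 96.0% of cells. Between 1 and 5 cell barcodes were shared by any pair of libraries. Of the 15 gated types, 9 had at least 10 cells in every library and were tested: macrophages, monocyte-like cells, type 2 conventional dendritic cells (cDC2), neutrophils, mast cells, CD8 T cells, CD4 T cells, regulatory T cells (Treg) and NK cells. Langerhans cells (LC), dendritic epidermal T cells (DETC) and γδ T cells were nearly absent from the tumors, so their members are described in control skin. A dissociation panel of 6 early response genes (Fos, Jun, Egr1, Hspa1a, Hspa1b and Atf3) was higher in both tumors than in both controls in 8 of the 9 types. In CD4 T cells it stood at 4.16 and 2.67 UMIs per 10,000 in control skin and at 51.9 and 42.8 in tumors, in CD8 T cells at 8.86 and 7.55 against 37.6 and 44.2, and in cDC2 at 18.9 and 19.2 against 58.8 and 78.8. Its part in the results was not tested.

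In control skin the members differed in which cell type held them most, among the 14 types with at least 10 cells in each control library. Levels are UMIs per 10,000 UMIs of a type, as mean ± SD of 2 libraries, and are compared between types and not between genes, because 3′ counts are not scaled by length. Psmb8 was highest in type 1 conventional dendritic cells (cDC1), which present captured antigen to CD8 T cells, at 4.20 ± 0.112, and next in CD4 T cells at 2.58 ± 0.435. Psmb9 was highest in the same cells at 2.70 ± 0.315, with CD4 T cells again next at 0.730 ± 0.138. For Psmb8 and Psmb9 the cDC1 libraries lay above both CD4 T libraries. Mature dendritic cells (mDC), left out of the order with 9 and 7 control cells, had Psmb8 at 3.40 and 3.8 and Psmb9 at 1.67 and 1.5, between cDC1 and CD4 T cells. Psmb8 was lowest in neutrophils (0.367 ± 0.342) and DETC (0.793 ± 0.0675). Psmb10 was lowest in Langerhans cells, the dendritic cells of the epidermis, at 0.104 ± 0.00588, where it overlapped with mast cells (0.153 ± 0.217, with 0 UMIs in control 1), and highest in monocyte-like cells at 0.935 ± 0.130, above macrophages at 0.692 ± 0.0259 without overlap.

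The presenting molecules had another order. B2m was highest in macrophages (29.7 ± 0.303) and lowest in Langerhans cells (12.7 ± 0.276), and both stood apart from their neighbours. H2-K1 was highest in Treg (18.0 ± 0.875), next in NK cells (16.6 ± 0.235) and lowest in neutrophils (3.74 ± 1.38). H2-D1 was also highest in Treg (20.2 ± 1.20) but overlapped there with NK cells (19.1 ± 3.08), and it was lowest in mast cells (7.98 ± 0.0209) and Langerhans cells (8.39 ± 0.748), which overlapped. Tap1 followed H2-K1 in being highest in Treg (1.53 ± 0.183), where it overlapped with cDC1 (1.28 ± 0.201). Nlrc5 was highest in CD4 T cells (2.21 ± 0.496) and CD8 T cells (1.73 ± 0.341), which overlapped with each other and of which the CD8 T cells stood above Treg (1.02 ± 0.162). The few mDC had Nlrc5 at 5.13 and 1.93. Of the 13 steps between neighbouring types in control skin, 12 overlapped for Tap2, 11 for Tap1, Nlrc5, Psmb9 and Psmb10, 10 for H2-D1 and Tapbp, 9 for B2m and Psmb8, and 6 for H2-K1.

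**Figure D1:**
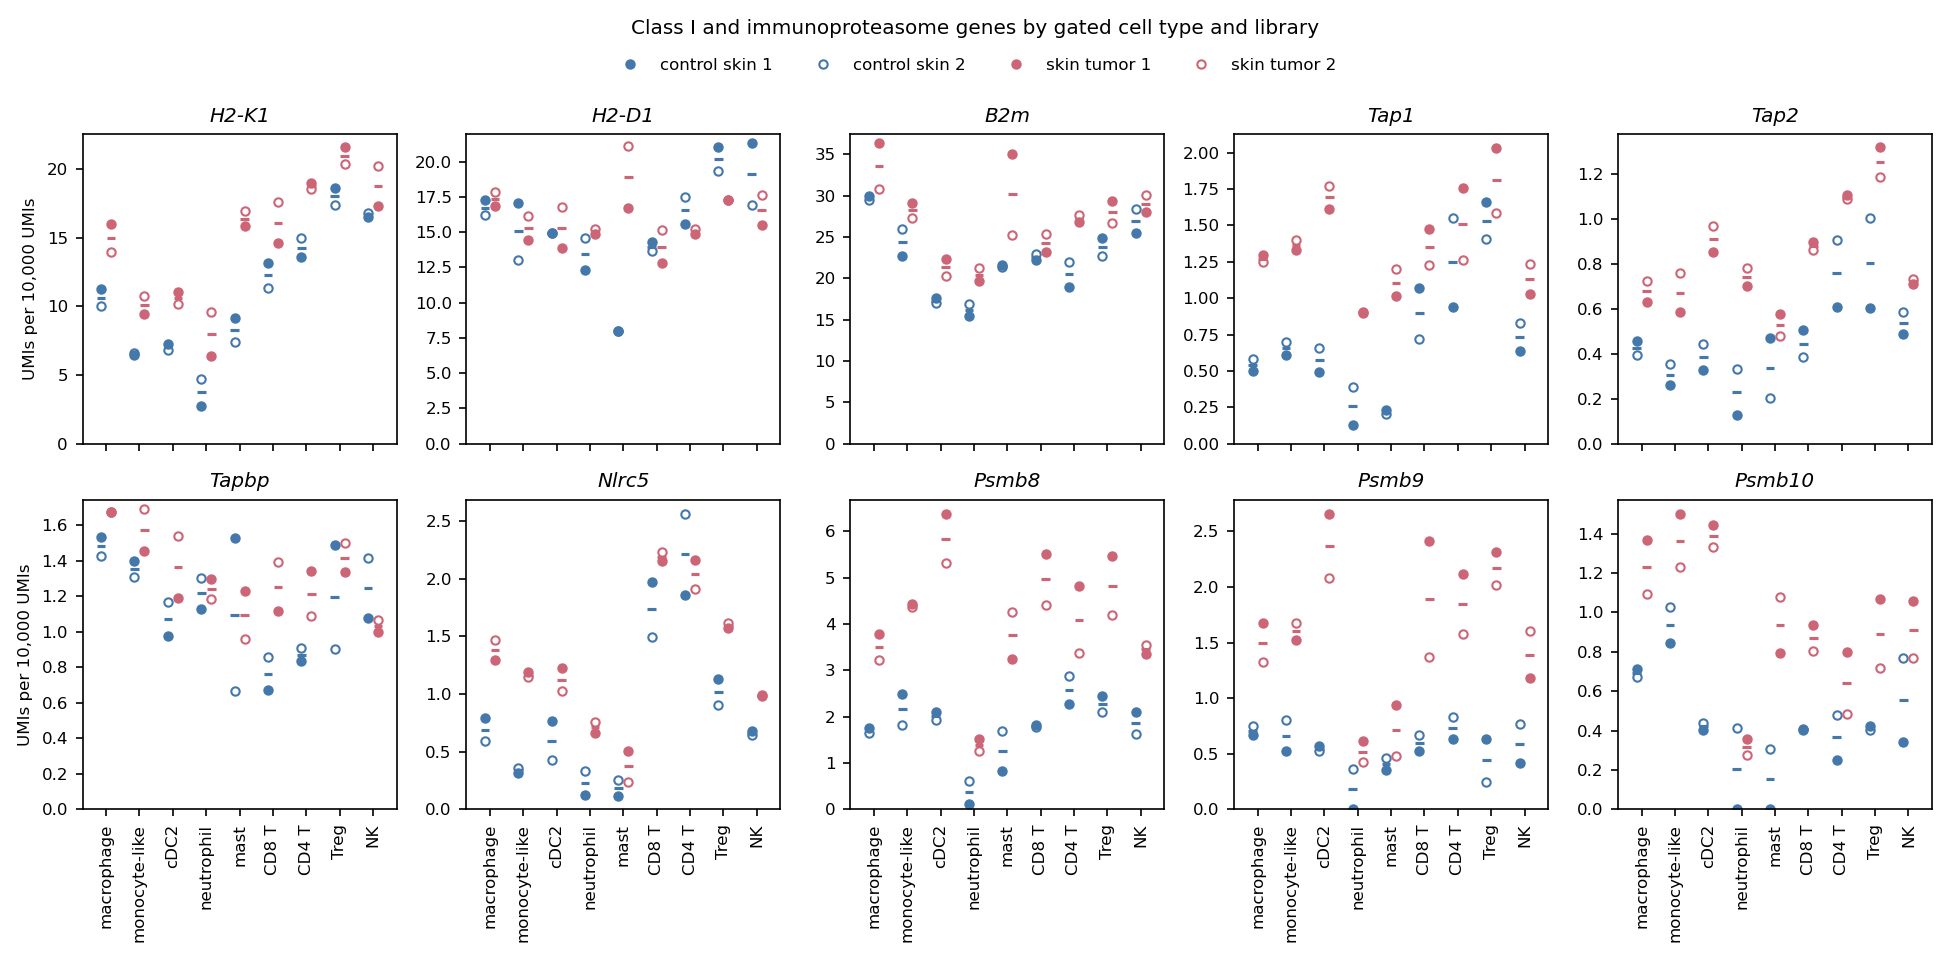
Levels of each of the 10 members in UMIs per 10,000 UMIs (vertical axes, starting at 0) in the 9 tested cell types, with 1 point per library (filled for replicate 1, open for replicate 2), short lines at the group means, control skin in blue and skin tumor in red. Both tumor points of Psmb8 lie above both control points in each of the 9 types, while those of H2-D1 do so in 2. The share of all genes with this order is not given.

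H2-K1, a classical heavy chain, was above both controls in both tumors in all 9 tested types, without passing the test in any of them. The types come from the same libraries, and the share of all genes with this order is not given, here or below. In macrophages it stood at 11.2 and 10.0 UMIs per 10,000 in control skin and at 16.0 and 14.0 in tumors, a log2 fold change of 0.35 ± 0.18 (SE) with edgeR adjusted p = 0.428. In cDC2 it stood at 7.22 and 6.82 against 11 and 10.1 (0.46 ± 0.15, edgeR adjusted p = 0.0852). The groups did not overlap in either type. Over the 9 types the log2 fold change of H2-K1 ranged from 0.14 in NK cells to 1.24 in mast cells.

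H2-D1, the other classical heavy chain, had a positive fold change in 2 of 9 types, neutrophils and mast cells, and passed the test in none. In macrophages its 4 libraries stood at 17.3 and 16.2 in control skin and 16.9 and 17.8 in tumors, and the groups overlapped. In CD4 T cells (15.6 and 17.5 against 14.9 and 15.2) and in Treg (21.0 and 19.3 against 17.3 and 17.3) both tumors lay below both controls, with fold changes of -0.18 ± 0.23 (edgeR adjusted p = 0.708) and -0.26 ± 0.24 (0.656). The sign of the H2-D1 change turned with the scaling of the libraries in macrophages, monocyte-like cells, cDC2 and CD8 T cells. Mast cells were the type with the largest difference, at 7.99 and 7.96 in control skin against 16.7 and 21.1 in tumors (1.49 ± 0.30, edgeR adjusted p = 0.0662), from 68 and 156 UMIs in the control libraries.

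B2m, the light chain that every class I molecule needs to reach the surface, was called in no tested type. Its fold change was positive in 8 of 9 types, and in CD8 T cells the sign turned with the scaling. In macrophages it stood at 30.0 and 29.5 in control skin and at 36.4 and 30.8 in tumors (0.03 ± 0.19, edgeR adjusted p = 0.965). In CD4 T cells it stood at 18.9 and 22 against 26.8 and 27.7 (0.37 ± 0.25, edgeR adjusted p = 0.437). The tumor libraries lay above the controls in both types.

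The genes of the peptide transporter passed the test in cDC2. Tap1, 1 subunit of the transporter, rose in cDC2, from 0.491 and 0.657 UMIs per 10,000 in control skin to 1.61 and 1.77 in tumors (log2 fold change 1.42 ± 0.23, edgeR adjusted p = 0.0148). Tap2, the other subunit, rose in the same cells from 0.327 and 0.445 to 0.851 and 0.966 (1.08 ± 0.26, adjusted p = 0.0411). Both tumors lay well above both controls for each subunit, and by edgeR cDC2 was the only one of the 9 types in which either passed. In macrophages Tap1 stood at 0.499 and 0.583 against 1.30 and 1.25, again with no overlap, and missed the threshold (1.08 ± 0.19, edgeR adjusted p = 0.0838). In monocyte-like cells it stood at 0.611 and 0.699 against 1.33 and 1.40 (0.91 ± 0.22, 0.147).

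Tap1 was not called in the T cells. In CD4 T cells it stood at 0.943 and 1.55 in control skin and at 1.76 and 1.26 in tumors, and in Treg at 1.66 and 1.40 against 2.03 and 1.59. The groups overlapped in both types. Tap2 had a positive fold change in all 8 types where it was tested, with tumors above controls in each. The share of all genes with this order in each type is not given. Tap2 was not tested in mast cells for its low counts. Tapbp, the tapasin that bridges the transporter and the heavy chain, passed the test in none of the 9 types. Its fold change ranged from -0.29 in NK cells to 0.57 in CD8 T cells, it was positive in 7 types, and its sign turned with the scaling in neutrophils.

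Nlrc5, the transactivator of class I genes, rose in monocyte-like cells, from 0.320 and 0.362 to 1.19 and 1.15 UMIs per 10,000 (1.62 ± 0.24, edgeR adjusted p = 0.0377). The control values rest on 11 and 43 UMIs. In macrophages it stood at 0.792 and 0.591 in control skin and at 1.30 and 1.47 in tumors (0.88 ± 0.21, edgeR adjusted p = 0.142). The T cells with the highest control level of Nlrc5 had no call. CD4 T cells stood at 1.86 and 2.56 against 2.17 and 1.91 with overlapping groups (-0.14 ± 0.22, edgeR adjusted p = 0.758), and CD8 T cells at 1.98 and 1.49 against 2.15 and 2.23 (0.18 ± 0.23, 0.675).

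The immunoproteasome subunits gave 10 of the 13 calls. Psmb8, Psmb9 and Psmb10 are the catalytic subunits that take the places of Psmb5, Psmb6 and Psmb7 (β5, β1 and β2) in immune cells and after interferon. In cDC2, Psmb8 rose from 2.10 and 1.92 to 6.37 and 5.31 UMIs per 10,000 (1.41 ± 0.17, edgeR adjusted p = 0.00578). Psmb9 rose there from 0.569 and 0.524 to 2.65 and 2.08 (1.99 ± 0.20, 0.00345). Psmb10 rose from 0.406 and 0.440 to 1.44 and 1.33 (1.58 ± 0.20, 0.00642). For each subunit the lower tumor library was above the higher control library by a wide margin.

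All 3 subunits also rose in CD8 T cells, the cells that read class I. Psmb8 went from 1.83 and 1.78 to 5.52 and 4.41 (1.33 ± 0.23, edgeR adjusted p = 0.0108), and Psmb9 from 0.524 and 0.671 to 2.41 and 1.37 (1.59 ± 0.31, 0.0166). Psmb10 went from 0.410 and 0.403 to 0.939 and 0.805 (0.98 ± 0.25, 0.0418). Tumor 1 was the higher tumor library for each of them, and no groups overlapped.

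In the other lymphocytes Psmb9 was the subunit that passed the test each time. In CD4 T cells it rose from 0.632 and 0.828 to 2.11 and 1.58 (1.32 ± 0.25, edgeR adjusted p = 0.0202). In Treg it rose from 0.637 and 0.251 to 2.32 and 2.02 (2.18 ± 0.37, 0.0163), from only 18 and 5 UMIs in control skin. NK cells had Psmb9 at 0.415 and 0.768 against 1.18 and 1.60 (1.21 ± 0.31, 0.0298). Psmb8 rose in NK cells as well, from 2.10 and 1.63 to 3.35 and 3.55 (0.85 ± 0.23, edgeR adjusted p = 0.0376). Control and tumor libraries did not overlap in any of these. Transcripts of macrophage and other myeloid genes were also more frequent in the lymphocyte gates of tumor 2, at 23.7 UMIs per 10,000 in CD4 T cells and 25.7 in Treg against 4.03 to 11.8 in the controls of both types, and their part in the result was not tested.

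Macrophages, the most numerous gated cells of the tumors with 1815 and 618 cells, had no member past the threshold. Psmb8 stood at 1.76 and 1.66 in control skin and at 3.78 and 3.22 in tumors (0.89 ± 0.17, edgeR adjusted p = 0.0954), and Psmb9 at 0.667 and 0.746 against 1.67 and 1.32 (0.93 ± 0.19, 0.105). Psmb10 stood at 0.710 and 0.674 against 1.37 and 1.09 (0.69 ± 0.18, 0.168). The tumor libraries were above the controls for 9 of the 10 members, all but H2-D1. The share of all genes with this order of libraries is not given. By edgeR 6 of 10 members had an unadjusted p under 0.05, beside 1863 of 12287 genes. DESeq2 called 4 of the members, Tap1, Nlrc5, Psmb8 and Psmb9, and its share of all genes is not given.

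Neutrophils and mast cells had few UMIs in control 1. In neutrophils of that library Psmb8 and Tap1 had 1 UMI each, and Psmb9 and Psmb10 had 0, which allows a level of up to 0.377 per 10,000 for counting error only. Psmb8 stood at 0.126 and 0.609 in control skin and at 1.51 and 1.26 in tumors. In mast cells Psmb8 stood at 0.823 and 1.68 against 3.25 and 4.26 (1.74 ± 0.40, edgeR adjusted p = 0.0874). The tumor libraries lay above the controls in both types. No member passed in either type, and DESeq2 called 0 members in both. In neutrophils 5 of 10 members had an unadjusted edgeR p under 0.05, beside 150 of 3981 genes. In mast cells 5 of the 7 tested members did, beside 414 of 2590 genes. Among those 7, Tap1 had 2 and 4 UMIs in control skin and 14 and 20 in tumors, and Psmb10 had 0 and 6 against 11 and 18. Both passed the low-count filter through the tumor libraries, so they lend this count no support. Tap2, Nlrc5 and Psmb9 were not tested in mast cells because of low counts.

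**Figure D2:**
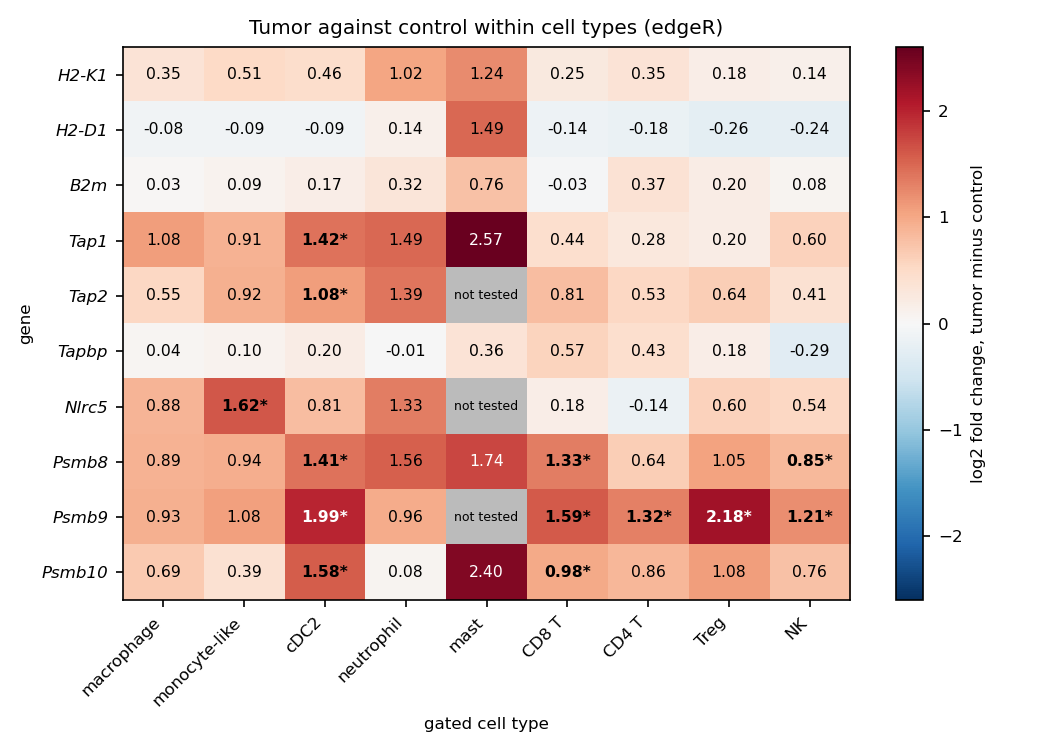
Heat map of the log2 fold change (tumor over control) from edgeR for each member (rows) in each tested cell type (columns), 2 libraries per group, with an asterisk and bold type where the adjusted p was under 0.05 and grey where a member was not tested. The 13 marked values lie in 6 types, 10 of them in the rows of Psmb8, Psmb9 and Psmb10, and none is below 0.

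Counted over the 9 types, 87 of 90 pairs of member and type could be tested, of which 13 were higher in tumors and 0 lower, and 76 had a positive fold change. In cDC2, 5 of 10 members were higher, where 5.79% of all genes tested were higher and 7.64% lower. CD8 T cells had 3 members higher (4.07% of all genes, and 5.34% lower), NK cells 2 (2.79%, and 2.88% lower), CD4 T cells 1 (4.02%, and 3.16% lower), Treg 1 (1.74%, and 1.04% lower) and monocyte-like cells 1 (0.434%, and 0.0638% lower). Macrophages, neutrophils and mast cells had 0 members called, beside 0.236%, 0% and 0.888% of all genes higher and 0.439%, 0% and 0.695% lower. The median log2 fold change of the members was 0.94 in cDC2, 0.71 in monocyte-like cells, 0.62 in macrophages, 0.51 in CD8 T cells, 0.47 in NK cells and 0.40 in both CD4 T cells and Treg, while the median of all genes lay between 0.01 and 0.07 in the 9 types. In neutrophils and mast cells the members' median was 0.99 and 1.49. The mast cell value includes Tap1 and Psmb10, which passed the low-count filter through the tumor libraries. Without the TMM scaling every fold change would be higher by 0.14 in macrophages, 0.12 in monocyte-like cells, 0.13 in cDC2 and 0.15 in CD8 T cells, and would change by -0.28 in mast cells.

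Leaving out control 1 left 2 calls in cDC2 and 0 in CD8 T, CD4 T, Treg, NK and monocyte-like cells, and leaving out control 2 left 3 in cDC2 and 0 in the other 5 types. These fits have 1 control library, which is assumed to vary as the tumors do. The fold changes of the 13 calls ran from 0.80 to 3.06 without control 1 and from 0.65 to 1.94 without control 2. Each call had both tumor libraries above both controls, so leaving out a control could hardly turn its sign. Psmb9 in cDC2 was the only call kept under all 12 alternatives to the analysis, and Psmb8, Psmb10 and Tap1 in cDC2 were kept under 11 of 12. Psmb8 in NK cells was kept under 4 of 12, Psmb9 in NK cells and Psmb10 in CD8 T cells under 6, and Tap2 in cDC2 under 8. Leaving out tumor 2 left 0 in NK cells, and leaving out tumor 1 left 1 there. Without tumor 2 the count was 3 in macrophages (Tap1, Psmb8 and Psmb9), 3 in Treg, 2 in CD4 T cells and 4 in mast cells, and without tumor 1 it was 3 in monocyte-like cells and 4 in mast cells. With a stricter gate, CD4 T, Treg and NK cells had 0. The share of all genes called under these alternatives is not given, so the counts describe the calls only. Within the gates the cells themselves were not the same mix: Mgl2 was detected in 90% and 87% of control cDC2 and in 60% and 69% of tumor cDC2, and Klra8 in 29% and 27% of control NK cells and in 63% and 67% of tumor NK cells. The part of this in the results was not tested.

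Whether the tumor effect differed between cell types was tested directly, against macrophages and with the library as a term. No member passed in any of the 8 types, beside 2.67% of genes that differed in cDC2, 1.68% in CD8 T cells, 1.41% in mast cells, 0.419% in NK cells, 0.242% in neutrophils, 0.209% in monocyte-like cells, 0.150% in CD4 T cells and 0.0405% in Treg. The effect on Psmb9 was larger in cDC2 than in macrophages by 1.00 ± 0.23 on the log2 scale (edgeR adjusted p = 0.0724), and that on H2-D1 larger in mast cells by 1.54 ± 0.46 (0.0734). For Nlrc5 the difference was -0.71 ± 0.28 in CD8 T cells (edgeR adjusted p = 0.324) and -1.01 ± 0.32 in CD4 T cells (0.249). The calls in cDC2 and their absence in macrophages are thus not shown to be a difference between these types.

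The immunoproteasome subunits were also read against the constitutive subunits they replace, as the summed UMIs of Psmb8, Psmb9 and Psmb10 over those of Psmb5, Psmb6 and Psmb7. This ratio needs no scaling between libraries. It was 1.34 and 1.32 in control cDC2 and 2.91 and 2.36 in tumor cDC2, and 1.23 and 1.04 against 2.53 and 2.26 in CD8 T cells. In macrophages it was 1.11 and 1.22 against 2.27 and 1.76. Both tumors were above both controls in every one of the 9 tested types, with 2 libraries a group and an exact permutation test that cannot go below p = 0.333. The 9 types come from the same libraries and are not separate observations. Of the types with 1 tumor library of at least 10 cells, DETC stood lower in it, at 0.548 (17 and 31 UMIs) against 0.663 and 0.625 in control skin. In cDC1 the ratio was 3.43 against 2.42 and 2.67, and in ILC2 1.5 (6 and 4 UMIs) against 0.731 and 0.550.

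The mean ratio in tumors over that in controls was 2.11 in CD8 T cells, 1.97 in cDC2, 1.75 in Treg, 1.73 in macrophages, 1.69 in monocyte-like cells, 1.54 in CD4 T cells and 1.47 in NK cells. It was 2.6 in mast cells and 2.81 in neutrophils, where control 1 gave 1 immunoproteasome UMI and 5 constitutive UMIs. Thinning every cell to 1000 UMIs leaves few UMIs of these genes. The tumors then lay above the controls in 4 of the 8 types with a value: macrophages (1.49), monocyte-like cells (2.08), CD8 T cells (1.81) and NK cells (1.56). In macrophages the margin was slight, with tumor 2 at 1.471 and control 2 at 1.463. The thinned groups overlapped in cDC2 (1.55), Treg (1.32) and mast cells (1.66), and in CD4 T cells they overlapped and the direction turned (0.577). In control skin the ratio was highest in cDC1, at 2.54 ± 0.172, and under 1 in mast cells (0.632 ± 0.465), type 2 innate lymphoid cells (0.640 ± 0.128), neutrophils (0.643 ± 0.627), DETC (0.644 ± 0.0266), Langerhans cells (0.783 ± 0.00773) and γδ T cells (0.853 ± 0.00367). Of the constitutive subunits only Psmb5 was called, in cDC2 (0.82 ± 0.20, edgeR adjusted p = 0.0461), where Psmb8 had changed by 1.41. Psmb6 had fold changes from -0.03 to 0.75 and Psmb7 from -0.09 to 0.50 over the 9 types.

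**Figure D3:**
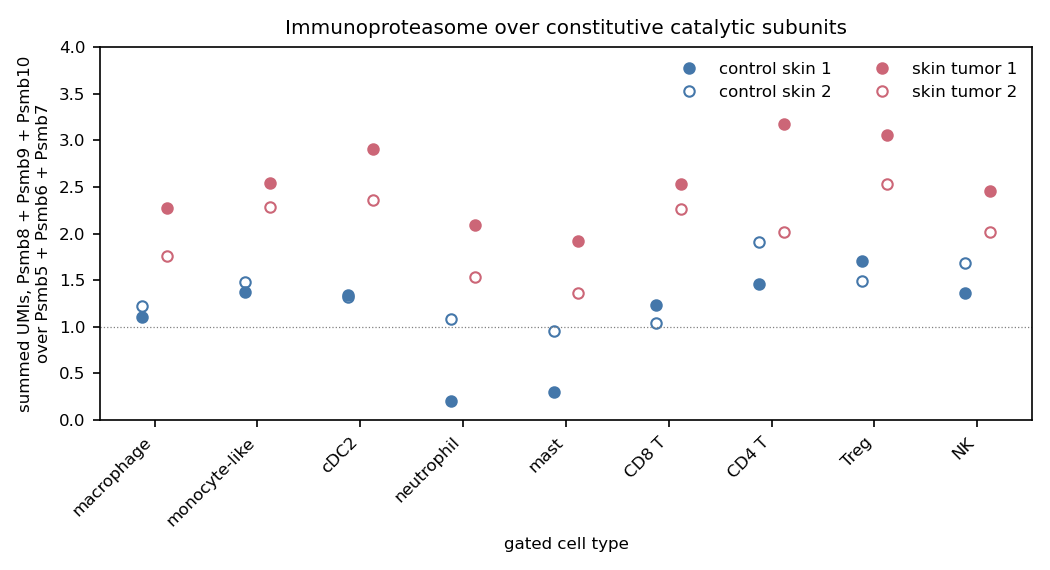
Ratio of immunoproteasome UMIs (Psmb8, Psmb9, Psmb10) to constitutive UMIs (Psmb5, Psmb6, Psmb7) in the 9 tested cell types, 1 point per library (filled for replicate 1, open for replicate 2), with a dotted line at a ratio of 1. Both tumor points are above both control points in each of the 9 types, for example 2.53 and 2.26 over 1.23 and 1.04 in CD8 T cells.

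At the level of single cells, Psmb8 was detected in more cells of the tumors. With each cell thinned to 1000 UMIs, 14.8% and 17.5% of control cDC2 had a Psmb8 UMI and 47.1% and 40.5% of tumor cDC2. In CD8 T cells the share was 14.4% and 24% against 32.0% and 37.2%, and in macrophages 13.4% and 15.2% against 29.5% and 27.7%. Tumor shares exceeded control shares in these 3 types. In CD4 T cells the share was 14.9% and 25% against 32.6% and 22.3%, and the groups overlapped. At full depth Psmb8 was detected in 91.8% and 82.5% of control cDC2 and 92.3% and 92.9% of tumor cDC2, so that most cells carried it in either group. Every cell type of the data expresses class I genes, and therefore none served as a measure of free RNA for these shares.

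The 24 other genes of the pathway ran from nonclassical class I genes and peptide trimming to the proteasome activator and the transcription factors. None was called lower in tumors in any type where it was tested. H2-T10 was tested in 0 of the 9 types, and Rfx5 and Rfxank in 1 each. Those higher were 6 of 20 tested in cDC2, where 5.79% of all genes tested were higher. They were 2 of 20 in CD8 T cells (4.07% of all genes), 2 of 20 in CD4 T cells (4.02%) and 1 of 20 in NK cells (2.79%). Macrophages had 1 of 23 (0.236%) and monocyte-like cells 1 of 21 (0.434%). Treg, neutrophils and mast cells had 0, beside 1.74%, 0% and 0.888% of all genes. Irf1, an interferon-induced factor that binds promoters of this pathway, rose in CD8 T cells from 0.524 and 0.755 to 1.29 and 2.19 (1.30 ± 0.31, edgeR adjusted p = 0.0360). Tumor and control libraries did not overlap for it in these cells. Irf1 was called in 3 of the 9 types and had a positive fold change in all 9.

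Over all gated cells together, 9 of the 10 members were higher in tumors, beside 14.9% of all genes. Psmb8 rose from 1.36 and 1.33 to 4.41 and 3.59 UMIs per 10,000 (1.48, edgeR adjusted p = 0.00478) and B2m from 16.7 and 17.2 to 33.0 and 29.1 (0.78, 0.0290). H2-D1 was the exception (0.25, 0.307). The mix of cells had changed too. Langerhans cells, DETC and γδ T cells gave 63.5% and 57.8% of gated UMIs in control skin and 0.226% and 1.11% in tumors, and macrophages with monocyte-like cells 8% and 18.9% against 75.3% and 75.5%. The difference lay in the number of sorted cells: Langerhans cells numbered 386 and 312 in control skin and 1 and 5 in tumors, and DETC 528 and 640 against 6 and 17. The median UMIs per cell were 17324 and 17814 against 12483 and 14069 in Langerhans cells, and 10642 and 10979 against 11833 and 8450 in DETC.

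To set the 2 contributions side by side, the control level of each type was weighted by the tumor mix of types. For B2m the changed mix alone moved the level by 0.68 on the log2 scale and the tumor levels added 0.19. For Tapbp the values were 0.59 and 0.22, and for H2-D1 0.30 and 0.03. Psmb8 had the opposite pattern, with 0.47 from the mix and 1.11 from the levels within types, as did Tap1 (0.30 and 1.06), Psmb9 (0.60 and 1.26), Nlrc5 (0.54 and 0.82), Tap2 (0.30 and 0.75) and H2-K1 (0.21 and 0.47). Psmb10 had 1.07 from the mix and 0.86 within types.

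**Figure D4:**
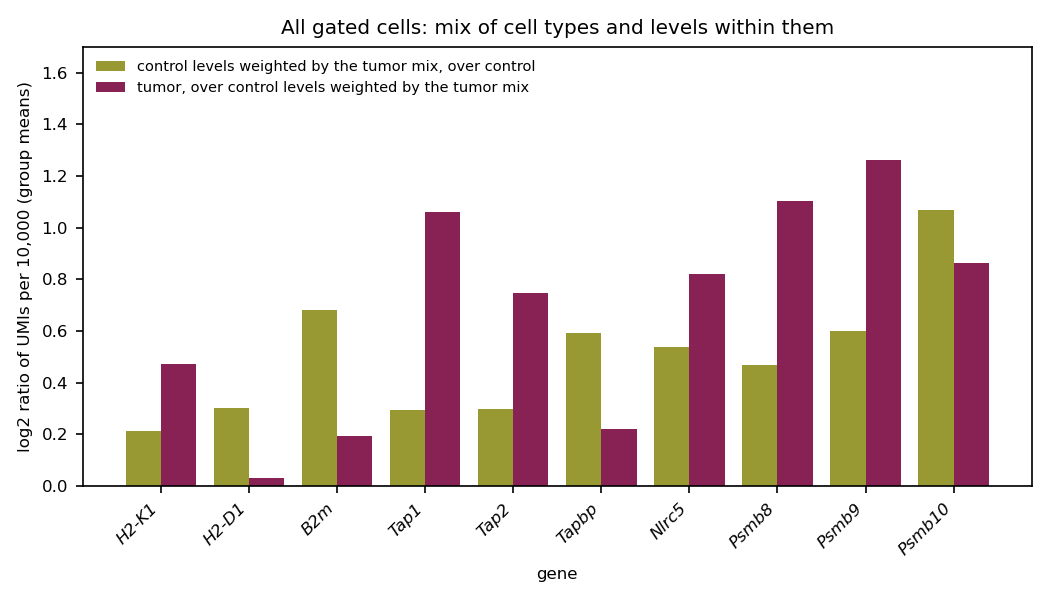
Bars of the log2 ratio of UMIs per 10,000 over all gated cells for each member: control levels weighted by the tumor mix over control, and tumor over those weighted control levels. The mix gives the larger part for B2m, Tapbp, H2-D1 and Psmb10, and the levels within types for the other 6 members.

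Across 51 sums of 1 cell type in 1 library, the members varied together to unequal degrees. These correlations are descriptions: the sums share libraries and differ in depth. The level of Psmb8 correlated with the mean of the other 9 members at r = 0.926, Tap1 at 0.916, Psmb9 at 0.858 and Tap2 at 0.846. Psmb10 (0.700), Nlrc5 (0.658), B2m (0.656), H2-K1 (0.627), Tapbp (0.587) and H2-D1 (0.565) followed it less closely. The closest pair was Psmb8 with Psmb9 (r = 0.919) and the least alike was H2-K1 with Tapbp (0.207). Of 3470 genes with a mean of at least 50 CPM, those most like the members' mean were Psme1 (r = 0.881) and Psme2 (0.852), which encode the interferon-inducible proteasome activator. Cd47, Rps19, Irf1, Pycard, Rbbp8, Dbnl, Csrp1 and Mapkap1 came next, at 0.790 down to 0.751, while the median gene had r = 0.0805. The sum with the lowest mean, neutrophils of control 1, weighed on the order: without it Psme2 (0.875) came before Psme1 (0.842), Irf1 (0.823), Cd47 (0.798) and Rbbp8 (0.766), and Rps19, Pycard, Dbnl and Csrp1 left the first 10. Psmb8 and Tap1 remained the members closest to the mean of the others, both at 0.903.

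**Figure D5:**
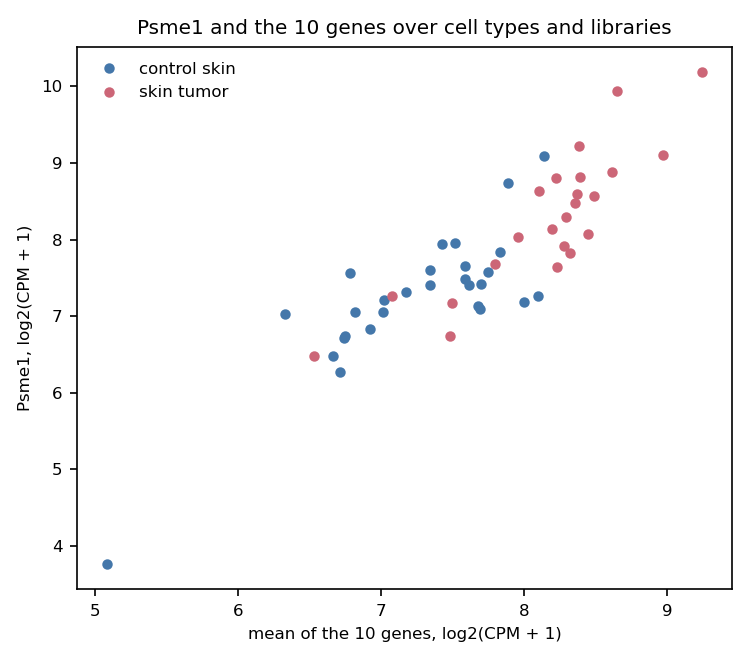
Psme1 (vertical axis) against the mean of the 10 members (horizontal axis), both as log2(CPM + 1), with 1 point for each of the 51 sums, control skin in blue and skin tumor in red. The points follow a common slope (r = 0.881), and the lowest point by far is neutrophils of control 1.

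Types with fewer than 10 cells in a library were examined afterwards at a minimum of 7 cells. In cDC1 (21 and 32 control cells, 60 and 9 tumor cells) 2 members were higher, beside 2.61% of all genes, with 5.80% lower. Psmb8 rose from 4.12 and 4.28 to 11.2 and 12 UMIs per 10,000 (1.22 ± 0.25, edgeR adjusted p = 0.0157), and Psmb9 from 2.92 and 2.47 to 6.43 and 8.93 (1.25 ± 0.27, 0.0216). The cell type with the highest control level of both subunits thus also had the highest tumor level. Neither was called without control 1, control 2 or tumor 2. In mDC edgeR called 0 members, beside 1.83% of all genes higher and 3.14% lower, and DESeq2 called 0. An unadjusted edgeR p under 0.05 was found there for 5 of 10 members and for 664 of 3120 genes. Tumor B2m in mDC was 42.4 and 40.5 against 27.4 and 25.2. In type 2 innate lymphoid cells (ILC2), with 10 and 8 tumor cells, edgeR called 0 members, beside 0.0783% of all genes higher and 0% lower. Il5 was detected in 69.6% and 70.8% of control ILC2 and in 10% and 25% of tumor ILC2, and the part of this in the results was not tested. For ILC2 an unadjusted edgeR p under 0.05 was found for 1 of 10 members and for 1098 of 6385 genes. DESeq2 called 1 member in ILC2, and its share of all genes is not given. There 2 of 10 members had a positive fold change and the members' median was -0.22, with a median of all genes of -0.35 and median UMIs per cell of 3267 and 3984 in tumors against 10357 and 10130 in controls. Nlrc5 in ILC2 stood at 0.957 and 0.482 against 5.58 and 2.36 (2.06 ± 0.56, edgeR adjusted p = 0.163). It was called without TMM factors, with the DESeq2 test, without the low-count filter, with a replicate block and with cycling cells left out. It was not called with DESeq2 size factors or with the UMI filter only. The share of all genes called under these settings is not given, so they describe the calls only.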

How the data were processed

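Live CD45+ cells from 2 control skins and 2 skin tumors were profiled by 10x Genomics 3′ sequencing. The authors aligned reads to mm10 and made UMI counts with Cell Ranger, version 7.1.0 in their notes and 7.0.1 in the file headers, and the deposited values are filtered raw counts per gene and cell. Cells with at least 1000 UMIs, 100 genes, a complexity of 0.8 and at most 15% mitochondrial UMIs were kept, the study's own limits, which left 2981 and 3089 control and 4784 and 1994 tumor cells. Cells were gated by marker UMIs into 15 types without any member gene, 1219 to 3183 cells per library. UMIs were summed per library and type and tested with edgeR 4.0.16 (quasi-likelihood, TMM, filterByExpr, Benjamini-Hochberg adjustment over all genes of a type, threshold 0.05). The study compared cells by a rank test, and libraries were used as replicates here. Levels are UMIs per 10,000. The scripts were tested on simulated data. Alternatives were DESeq2 1.42.0 and its size factors, no TMM, no low-count filter, a replicate block, other gates and filters, and each library left out. All 10 members were reported. Other pathway genes were counted, and named where called in macrophages or CD8 T cells, or for their likeness. Some items of the series are not reported here. Members and lists were chosen with earlier results of these data known.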

Additional observations from a re-analysis of the deposited data

How the results depend on the processing

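Of the recomputed counts and values that answer a comparison, 128 stayed within 1.5 times or 1 SD of the reported one, 48 moved further and 1 reversed, the immunoproteasome ratio of CD4 T cells. Members called higher in macrophages (0) became 1 without TMM factors, 4 with the DESeq2 test, 5 without the low-count filter and 4 with the UMI filter only. The share of all genes called under each setting is not given, so these counts and those below describe the calls only. Without the low-count filter the counts were 4 in monocyte-like cells, 5 in mast cells and 2 in Treg. With the stricter gate they were 0 in CD4 T, Treg and NK cells, and in NK cells 0 also with the DESeq2 test and with cycling cells left out. Leaving out 1 library, with the lone library of its group assumed to vary like the other group, gave 0 to 3 members in macrophages, 0 to 3 in monocyte-like cells, 2 to 7 in cDC2, 0 to 4 in mast cells, 0 to 4 in CD8 T cells, 0 to 2 in CD4 T cells, 0 to 3 in Treg, 0 to 1 in NK cells, 0 to 0 in neutrophils and 5 to 8 over all gated cells. The members that differed from macrophages were 0 to 1 in mast cells, 1 with DESeq2 size factors, and 0 in the other types. The correlation of same-numbered deviations ran from -0.176 in Treg to 0.0989 in CD8 T cells. With 2 libraries a group it cannot show whether samples of the same replicate number were handled together. With a replicate block the count was 0 in monocyte-like cells, 1 in CD8 T cells and 1 in NK cells, and in other types moved by less than 1.5 times. The crossed pairing, added for Treg after seeing the data, gave 2. Thinned ratios that moved were 2.08 in monocyte-like cells, 1.55 in cDC2 and 1.32 in Treg, and that of CD4 T cells turned to 0.577. The difference in the share of cells with Psmb8 at full depth was 12.7 points in monocyte-like cells, 5.42 in cDC2, 20.9 in neutrophils, 32.2 in mast cells and 2.17 in NK cells, against 17.8, 27.6, 7.53, 8.91 and 9.26 in thinned cells. The causes were not tested, except that leaving out a library removes a sample. With 2 libraries a group and as few as 17 cells of a type in a library, smaller differences could not be detected at this depth.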

Other observations

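Tumor macrophages were also divided by Arg1, a gene of alternatively activated macrophages. In tumor 1 Psmb8 was at 2.95 UMIs per 10,000 in 153 cells with at least 2 Arg1 UMIs and at 3.85 in 1575 cells with none, and in tumor 2 at 3.17 in 142 cells and 3.27 in 425 cells. Tap1 was at 0.979 and 1.33 in tumor 1 and at 1.13 and 1.30 in tumor 2. B2m was at 34.1 and 36.6 in tumor 1 and at 27.7 and 32.2 in tumor 2. The cells without Arg1 were the higher ones for 9 of 10 members in each tumor. The exceptions were H2-D1 in tumor 1 (17.3 with and 16.8 without Arg1) and Psmb10 in tumor 2 (1.13 and 1.05). Some differences in tumor 2 were slight, as for Nlrc5 (1.468 and 1.474) and Psmb9 (1.328 and 1.338). How many of all genes had this order is not given. Median UMIs per cell were 21772 with and 20476 without Arg1 in tumor 1, and 23447.5 and 20030 in tumor 2. The part of this depth in the result was not tested. With 2 libraries no test of the difference was made.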
